A study of Rattus norvegicus with 6 samples.

Results

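Hif1a, Pfkfb3, Gapdh and Ckm are 4 genes of oxygen sensing, glycolysis and muscle energy supply, taken from 1103 named genes on a rat array of 1185 probes. They were found by gene symbol in the platform annotation, and each has 1 probe. Hif1a and Pfkfb3 are treated as regulators, and Gapdh and Ckm as enzymes with bright probes. They were chosen by their probe signals and their CPB minus sham differences on these same arrays, so those values are given as a description with no test. RNA was total RNA from whole rat heart, on 1 array per heart. One group was 3 rats on cardiopulmonary bypass (CPB), where a machine pumps and oxygenates the blood in place of heart and lungs, and the other was 3 rats with a sham operation. No strain, age, sex, bypass time or sampling time is given in the sources used here. Nothing in the labels ties animals to a litter, day or batch.

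Hif1a encodes the oxygen-regulated subunit of hypoxia-inducible factor 1. Prolyl hydroxylases mark this protein for destruction while oxygen is plentiful. When oxygen falls, the protein persists, pairs with ARNT and binds DNA to activate genes of glucose uptake, glycolysis and vessel growth. Much of this control acts on the protein, which an RNA array does not see. Pfkfb3 encodes a bifunctional kinase and phosphatase that makes fructose 2,6-bisphosphate, the strongest known activator of phosphofructokinase, and it is a known target of HIF-1. Gapdh encodes the glycolytic enzyme glyceraldehyde-3-phosphate dehydrogenase, often used as a constant reference in RNA assays. Ckm encodes muscle creatine kinase, which passes phosphate between creatine phosphate and ADP in heart and skeletal muscle.

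The promoters are shown because HIF-1 acts through a short DNA core, written here as ACGTG or GCGTG. The sequences are the 250 bases before the gene start used in the RefSeq promoter table (GRCr8), 5′ to 3′ on the gene's own strand. Capitals mark each match to either core on either strand.
Hif1a, chr6:98359648-98359897, plus strand: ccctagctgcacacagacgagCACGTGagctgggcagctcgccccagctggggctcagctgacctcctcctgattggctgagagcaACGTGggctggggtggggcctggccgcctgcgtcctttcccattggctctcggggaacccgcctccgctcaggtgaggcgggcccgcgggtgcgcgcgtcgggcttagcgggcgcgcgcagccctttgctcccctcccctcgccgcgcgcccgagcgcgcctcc
Pfkfb3, chr17:71944683-71944932, plus strand: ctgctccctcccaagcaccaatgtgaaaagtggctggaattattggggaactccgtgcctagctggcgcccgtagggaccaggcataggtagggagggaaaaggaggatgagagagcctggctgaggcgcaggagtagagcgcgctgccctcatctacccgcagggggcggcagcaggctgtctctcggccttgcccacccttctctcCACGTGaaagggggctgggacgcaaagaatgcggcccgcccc
Gapdh, chr4:159652468-159652717, minus strand: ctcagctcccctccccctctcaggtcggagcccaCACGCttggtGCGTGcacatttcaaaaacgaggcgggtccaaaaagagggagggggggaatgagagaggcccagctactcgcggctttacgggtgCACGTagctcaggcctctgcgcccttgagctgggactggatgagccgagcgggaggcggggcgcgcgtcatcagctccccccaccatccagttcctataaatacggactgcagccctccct
Ckm, chr1:88189211-88189460, plus strand: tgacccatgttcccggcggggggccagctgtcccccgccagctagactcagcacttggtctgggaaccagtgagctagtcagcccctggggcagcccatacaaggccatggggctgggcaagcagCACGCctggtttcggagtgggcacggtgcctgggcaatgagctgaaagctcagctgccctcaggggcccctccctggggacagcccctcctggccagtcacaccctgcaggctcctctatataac
Hif1a had 3 matches, of which 2 are the overlapping strands of 1 palindrome, CACGTG, and Pfkfb3 had 2, both within another CACGTG. That palindrome in Pfkfb3 lies 37 to 42 bases before the start. Gapdh had 3 separate matches and Ckm had 1. A core of 5 bases is common, and 36.7% of 33469 RefSeq promoters of this length held at least 1 match, as did 47.5% of the 943 promoters found for genes on the array. In the same order, at least 2 matches were held by 16% and 23.9%, and at least 3 by 6.21% and 8.59%. The matches are a description of these letters and do not mark bound sites. The RefSeq locus of Pfkfb3 spans 71893320 to 71974526 on chromosome 17. The windows of Hif1a, Pfkfb3 and Gapdh lie inside their RefSeq loci and that of Ckm overlaps its own, so each stands for 1 of several starts.

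Each array had a lowest level, and above it the deposited values moved in equal steps on the linear scale. The share of probes at that level was 10.7% to 47.3% on CPB arrays and 20.5% to 43.3% on sham arrays, and the arrays numbered 3 had the largest shares in both groups. Levels below are log2 intensities after quantile normalization, which gives all 6 arrays the same distribution, with the values as deposited beside them. A level is set against the same gene's level on other arrays and is not a measure of abundance between genes. All 5 measured cardiomyocyte markers, among them Tnni3, Casq2 and Pln, were above the lowest level of every array. The log2 of their summed linear signal as deposited was 19.13 to 19.36 in CPB hearts and 18.74 to 19.20 in sham hearts, which overlap. The brightest markers dominate such a sum. After quantile normalization Tnni3 was higher in all 3 CPB hearts than in all sham hearts, as were 1.6% of 1185 probes, and Pln was lower. The share of probes with CPB below was not computed. The differences were 0.47 (SE 0.28) and -0.28 (SE 0.27), neither past the test (limma adjusted p = 0.909 for each). As deposited both genes overlapped. Tnni3 was at 15.90 in sham heart 2 and 15.45 in CPB heart 3, and Pln at 14.50 in sham heart 1 was below every CPB heart. Median scaling put the Pln difference at 0.19. Of the skeletal muscle markers, which bear on Ckm, Myog and Myod1 were measured. Myog reached no more than the lowest level on 1 array of each group, and Myod1 on all 3 sham arrays and on 0 CPB arrays. No endothelial, erythroid or platelet marker of the lists was measured.

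Pfkfb3 had the highest mean difference of the 4 genes. Its log2 intensity was 13.02, 12.87 and 12.36 in CPB hearts 1, 2 and 3, against 11.33, 12.49 and 12.27 in sham hearts 1, 2 and 3. The groups overlapped, since CPB heart 3 lay below sham heart 2, and sham heart 1 was far below the other 5. The means were 12.75 ± 0.35 in CPB and 12.03 ± 0.61 in sham hearts (SD, n = 3 each), a difference of 0.72 or 1.65-fold. Of 1185 probes, 1.10% had a higher difference, and the median over all probes was -0.03. Without sham heart 1 the difference was 0.37. As deposited, Pfkfb3 was at 13.01, 12.77 and 12.38 in CPB hearts and at 11.35, 12.61 and 12.25 in sham hearts, a difference of 0.65. After quantile normalization, CPB minus sham between hearts of the same replicate number was 1.69, 0.38 and 0.09. As deposited it was 1.65, 0.16 and 0.13. All 3 were above 0 under both scalings, and number 1 carried most of the mean.

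Hif1a was dim, and its picture depended on how arrays were scaled. Its log2 intensity was 9.49, 9.52 and 9.52 in CPB hearts, against 9.20, 8.99 and 8.68 in sham hearts. All 3 CPB values lay above all 3 sham values, and Hif1a was the only one of the 4 genes whose groups did not overlap. For all 1185 probes that share was 1.6% with CPB above, printed as background only, because the same contrast picked the gene. The means were 9.51 ± 0.02 in CPB and 8.96 ± 0.26 in sham hearts (SD, n = 3 each), a difference of 0.55 or 1.47-fold. As deposited, the values were 9.12, 9.39 and 9.75 in CPB hearts and 9.54, 8.67 and 9.12 in sham hearts, the groups overlapped and the difference was 0.31. In those values sham heart 1 was above CPB hearts 1 and 2.

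The coarse scale of dim probes bears directly on Hif1a. It lay 2, 5 and 1 steps above the lowest level in CPB hearts 1, 2 and 3, against 1, 1 and 0 in the sham hearts. A rise of 1 step would have changed its deposited log2 value by 0.43, 0.16 and 0.45 in CPB hearts and by 0.50, 0.38 and 0.72 in sham hearts. On every array but CPB heart 2, 1 step was thus worth more than the whole deposited difference of 0.31. The level was also shared. On CPB arrays 152, 52 and 256 other probes had exactly the level of Hif1a, and on sham arrays 413, 254 and 512 did. The SD of 0.02 among CPB hearts after quantile normalization is therefore an SD of tied ranks. For Pfkfb3 the same step was worth 0.02 to 0.08 in CPB hearts and 0.03 to 0.16 in sham hearts.

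**Figure D1:**
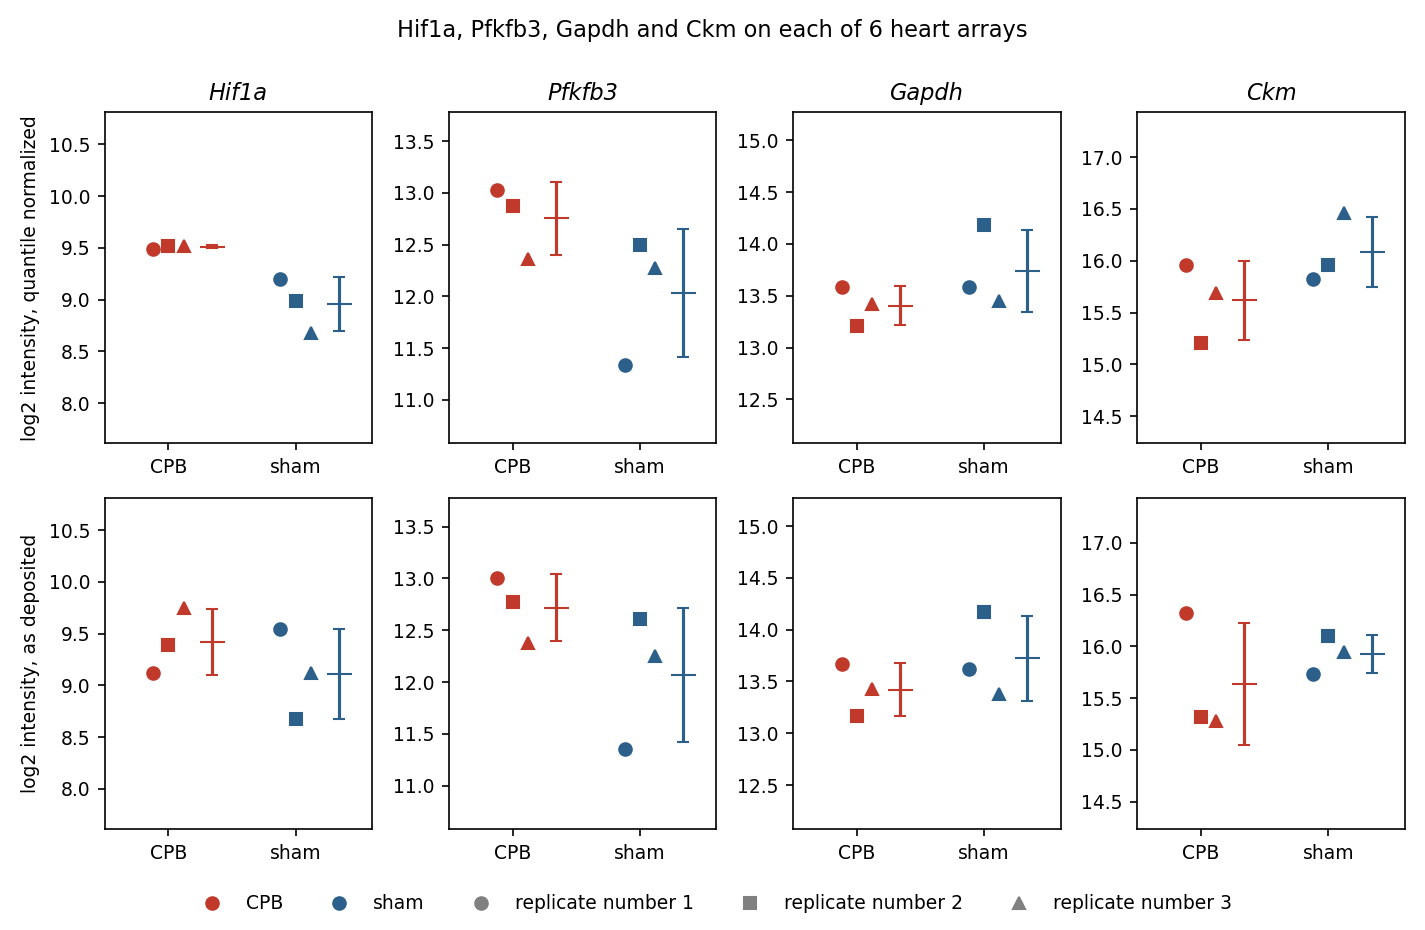
Log2 intensity of the 4 genes on each array, quantile normalized in the upper row and as deposited in the lower row, with CPB hearts left and sham hearts right. Symbols mark the replicate number, and the bar beside each group is the mean ± SD (n = 3). All panels span the same range of log2 units. Hif1a values are apart in the upper row and overlap in the lower one, while Pfkfb3, Gapdh and Ckm overlap in both.

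Most of the mean difference of Gapdh came from 1 sham heart. Its log2 intensity was 13.58, 13.21 and 13.42 in CPB hearts, against 13.58, 14.19 and 13.45 in sham hearts. Sham heart 2 stood above the other 5 hearts, which lay between 13.21 and 13.58. The means were 13.40 ± 0.19 in CPB and 13.74 ± 0.39 in sham hearts (SD, n = 3 each), a difference of -0.33 or 0.793-fold. Without sham heart 2 the difference was -0.11. By replicate number the differences were 0, -0.97 and -0.03, so only number 2 was far from 0. As deposited, the difference was -0.30, close to the -0.29 that was the median of all probes, and 50.7% of probes had a higher difference.

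Ckm was at 15.96, 15.21 and 15.69 in CPB hearts, against 15.83, 15.96 and 16.46 in sham hearts. The groups overlapped, with CPB heart 1 level with sham heart 2. The means were 15.62 ± 0.38 in CPB and 16.08 ± 0.34 in sham hearts (SD, n = 3 each), a difference of -0.47 or 0.724-fold. In whole-heart RNA, fewer cells of a type and less RNA per cell cannot be told apart. As deposited, Ckm was at 16.32, 15.32 and 15.28 in CPB hearts and at 15.73, 16.10 and 15.95 in sham hearts. There CPB heart 1 was the highest of the 6 and CPB hearts 2 and 3 the lowest, and the difference was -0.29, equal to the median of all probes at 2 decimals. The difference after quantile normalization was -0.26 without CPB heart 2 and -0.27 without sham heart 3. Ckm ranked between the 4th and the 9th brightest of 1185 probes on every array, so quantile normalization placed it by rank among very few probes.

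Scaling every array to the same median changed the sign of both enzymes and of neither regulator. The differences were then 0.09 for Gapdh and 0.11 for Ckm, against a median of 0.11 over all probes, and 1.04 for Pfkfb3 and 0.70 for Hif1a. Under this scaling CPB heart 3 and sham heart 1 had the same Hif1a value, 9.28, since Hif1a lay at the median of both arrays. Both regulators lay above the median of all probes under all 3 scalings. The enzymes lay below that median after quantile normalization and close to it in the deposited and median-scaled values.

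**Figure D2:**
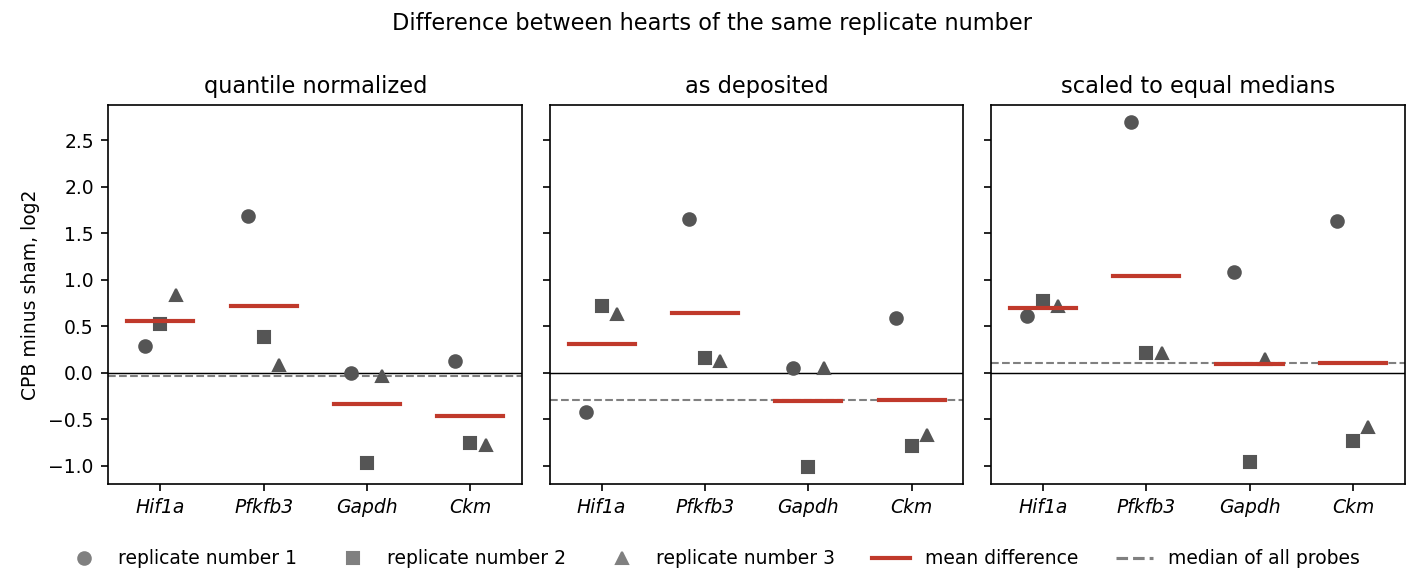
CPB minus sham log2 difference between hearts that share a replicate number, for each gene under 3 scalings. Red lines are the mean difference, the dashed line is the median of all 1185 probes, and the solid line is 0. Pfkfb3 is above 0 at all 3 numbers in each panel, with number 1 highest, while Ckm is above 0 at number 1 and below it at numbers 2 and 3.

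Setting a regulator against an enzyme on the same array removes any factor that multiplies the whole array, so the deposited and median-scaled values give the same result. The mean of Hif1a and Pfkfb3 minus the mean of Gapdh and Ckm was -3.93, -3.16 and -3.29 in CPB hearts as deposited, against -4.23, -4.50 and -3.98 in sham hearts. All 3 CPB hearts lay above all 3 sham hearts, by 0.77 on average. For comparison, 2.62% of 1183 single probes set against the mean of both enzymes had CPB hearts all above sham hearts. After quantile normalization the values were -3.51, -3.01 and -3.62 in CPB hearts and -4.44, -4.33 and -4.48 in sham hearts, a difference of 1.04. The groups were again apart, as they were for 15.3% of single probes under that normalization. These sizes belong to genes picked for opposite differences and are given with no test.

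Pfkfb3 separated the groups against either enzyme under both scalings. As deposited, Pfkfb3 minus Ckm was -3.31, -2.55 and -2.90 in CPB hearts, against -4.38, -3.49 and -3.70 in sham hearts. The groups did not overlap, the difference was 0.94, and the 3 differences by replicate number were 1.07, 0.94 and 0.80. Of 1183 probes set against Ckm in this way, 1.01% had CPB hearts all above sham hearts. Pfkfb3 minus Gapdh was -0.66, -0.39 and -1.05 in CPB hearts, against -2.27, -1.56 and -1.13 in sham hearts, a difference of 0.95. These groups were apart by a narrow gap between CPB heart 3 and sham heart 3, and number 3 contributed only 0.07. The share of all probes apart in this direction against Gapdh was 2.62%. After quantile normalization both pairs were again apart, with differences of 1.19 against Ckm and 1.05 against Gapdh, where 10.1% and 12.8% of probes were apart.

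Hif1a did not separate the groups in this way in the deposited values. Hif1a minus Gapdh was -4.55, -3.77 and -3.68 in CPB hearts, against -4.08, -5.50 and -4.26 in sham hearts. Hif1a minus Ckm was -7.20, -5.93 and -5.53 in CPB hearts, against -6.19, -7.43 and -6.83 in sham hearts. Both pairs overlapped, since CPB heart 1 was lower than sham heart 1, and the differences were 0.61 and 0.59. The enzymes did not part from each other. Ckm minus Gapdh averaged 2.22 ± 0.41 in CPB and 2.21 ± 0.33 in sham hearts as deposited (SD, n = 3 each), a difference of 0.01. After quantile normalization it was -0.13.

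**Figure D3:**
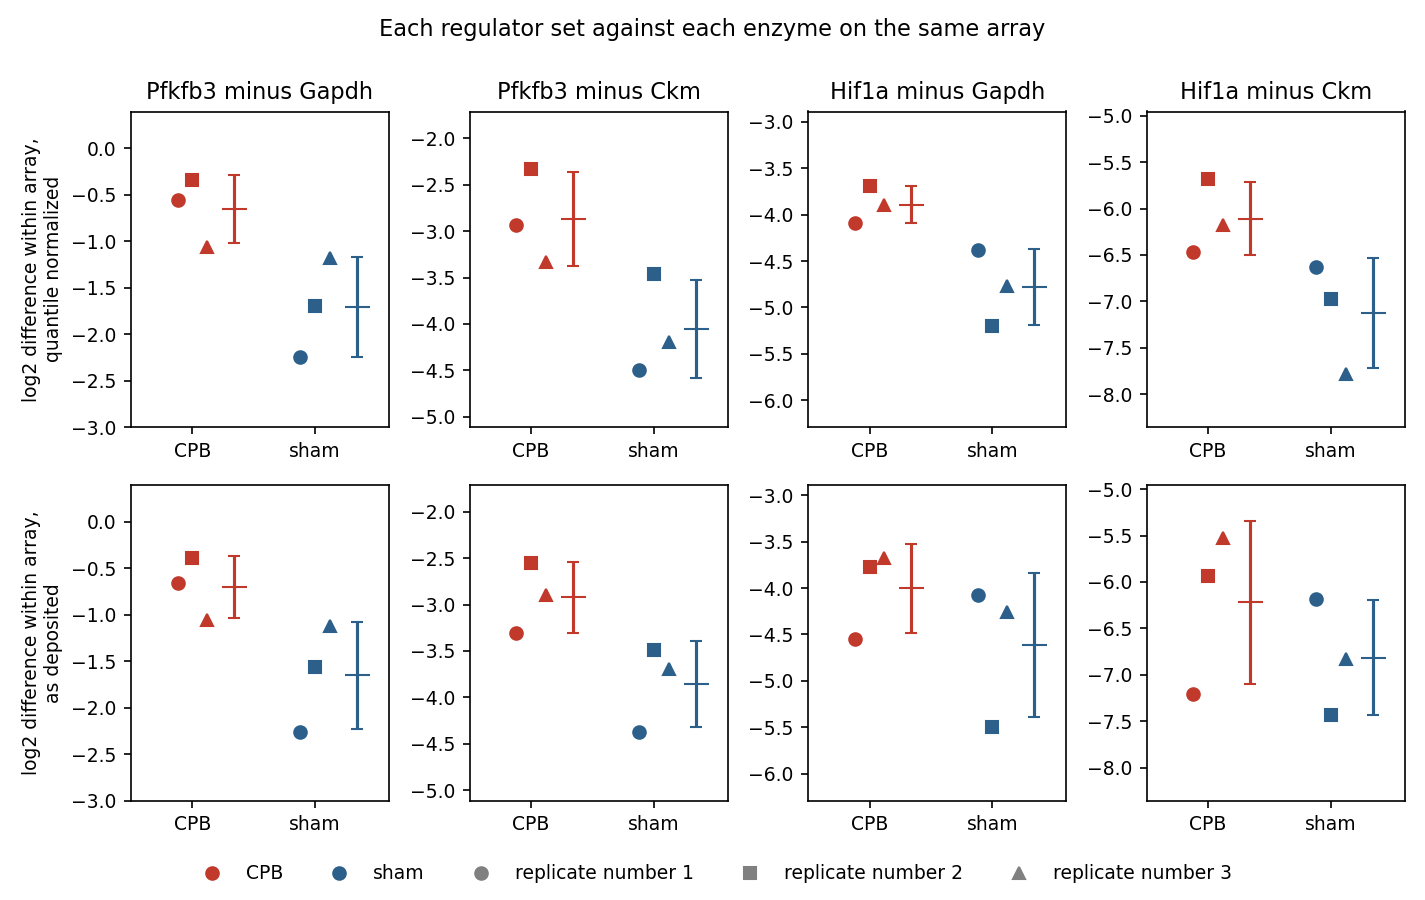
Log2 difference between a regulator and an enzyme on the same array, quantile normalized above and as deposited below, CPB hearts left and sham hearts right, with mean ± SD (n = 3) beside each group. Pfkfb3 against Gapdh and against Ckm separates the groups in both rows, while Hif1a does so in the upper row only.

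Differences also moved with the brightness of a probe. In the values as deposited, the median difference was -0.49, -0.38, -0.20 and -0.01 over 4 bins of 296 or 297 probes ordered from dim to bright, and after quantile normalization it was -0.05, -0.07, 0.03 and 0.04. Hif1a belonged to the bin next to the dimmest, and Pfkfb3, Gapdh and Ckm to the brightest. As deposited, Hif1a at 0.31 and Pfkfb3 at 0.65 were both above the median of their own bin, and Gapdh and Ckm were both below it. The part of brightness in these differences was not tested.

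Other genes of the same pathways showed no change that passed the test. The limma fit over all probes called 0 of 1185 at an adjusted p of 0.05, so the background is 0%, while 35 had an unadjusted p under 0.05. As deposited it called 1 (0.0844%), which was Sparc and no gene of the pathway lists. In the HIF and oxygen sensing list, 4 of 23 genes were measured, and of the 3 besides Hif1a, 0 rose and 0 fell (median -0.05). Egln3, a prolyl hydroxylase that acts on HIF and is itself a HIF target, stood at 0.06 (SE 0.37, limma adjusted p = 0.999). It lay on 2, 1 and 1 steps above the lowest level in CPB hearts and on 2, 1 and 0 in sham hearts. Arnt2, a relative of the HIF partner ARNT, was at -0.05 (SE 0.19), and 1 CPB array and 2 sham arrays held it at their lowest level. Rack1, a scaffold protein that promotes HIF-1α turnover, was bright enough on all arrays and stood at -0.21 (SE 0.33).

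Of 40 further textbook HIF-1 targets, 4 were measured, and 0 passed in either direction (median 0.02). Bhlhe40, a transcriptional repressor, was at 0.31 (SE 0.36). It held 10.09, 10.20 and 10.09 in CPB hearts, against 9.20, 10.09 and 10.16 in sham hearts, so sham heart 1 alone was low. That value lay only 1 step above the lowest level, while Pfkfb3 on the same array lay 7 steps above it. As deposited the difference of Bhlhe40 was 0.13. Nt5e, which makes adenosine outside the cell, was at 0.04 (SE 0.37), and Slc8a1, the sodium-calcium exchanger, at -0.32 (SE 0.32). Adm, a vasodilator peptide, was at the lowest level on 2 arrays of each group and had a difference of 0.

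In the list of glucose transport, glycolysis and lactate genes, 14 of 53 were measured. Of the 12 besides Pfkfb3 and Gapdh, 0 rose and 0 fell, 3 had a positive difference, 6 a negative one and 3 none (median -0.04, against -0.03 for all probes). Pfkfb3 was the only gene of its family above the lowest level on all arrays. Its relatives Pfkfb1 and Pfkfb2, best known from liver and heart, were at the lowest level on 2 and 1 arrays of each group, at differences of 0 and -0.07 (SE 0.23). Phosphofructokinase, which their product activates, was represented by the liver-type subunit Pfkl, at 0.00 (SE 0.35) and at -0.30 as deposited. Pfkl was dim, at 2, 4 and 1 steps above the lowest level in CPB hearts and 1, 4 and 1 in sham hearts.

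Enzymes downstream in glycolysis did not share one direction after quantile normalization or as deposited. Pgam2, the muscle phosphoglycerate mutase, was at 13.08, 12.40 and 12.75 in CPB hearts, against 12.47, 12.35 and 12.54 in sham hearts. Its difference was 0.29 (SE 0.28, limma adjusted p = 0.909), and CPB heart 2 lay among the sham hearts. Tpi1, triosephosphate isomerase, was at 0.31 (SE 0.40), and Pkm, pyruvate kinase, at -0.07 (SE 0.30). Pkm was highest in CPB heart 1 at 13.02 and lowest in CPB heart 3 at 12.19, which enclosed all sham values. Pklr, the pyruvate kinase of liver and red cells, and Ldhc, the lactate dehydrogenase of testis, were at the lowest level on 2 or more of the 6 arrays and stood at 0 and -0.10. Median scaling put all of these above 0. Pgam2 and Tpi1 were then at 0.69, Pkm at 0.28, Pklr at 0.22 and Ldhc at 0.16, against 0.11 for all probes.

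Lactate transport and mitochondrial entry were represented by dim probes. Slc16a3, which exports lactate, was at -0.25 (SE 0.35) and lay only 1 or 2 steps above the lowest level on every array. Slc16a7, another monocarboxylate transporter, was at the lowest level on all 6 arrays and has no measured level. Pdp2, a phosphatase that activates pyruvate dehydrogenase, had the lowest difference of the list at -0.39 (SE 0.27, limma adjusted p = 0.909), with 1 array of each group at the lowest level. Gpd2, of the glycerol phosphate shuttle, was at -0.15 (SE 0.30).

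In the list of creatine and adenylate energy transfer, 5 of 26 genes were measured, and Ckm was the only creatine kinase among them. Of the other 4, 0 rose and 0 fell, with 3 positive and 1 negative difference (median 0.22). Prkab1 and Prkag1, subunits of the energy sensor AMP-activated protein kinase, were at 0.27 (SE 0.34) and 0.17 (SE 0.30). Prkab1 was at 11.54, 10.58 and 11.77 in CPB hearts, against 11.13, 11.08 and 10.87 in sham hearts, so CPB heart 2 was the lowest of the 6. Ampd3, an AMP deaminase, was at 0.39 (SE 0.37, limma adjusted p = 0.909), and Ampd1, the deaminase best known from skeletal muscle, at -0.19 (SE 0.26). Both had arrays at the lowest level.

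**Figure D4:**
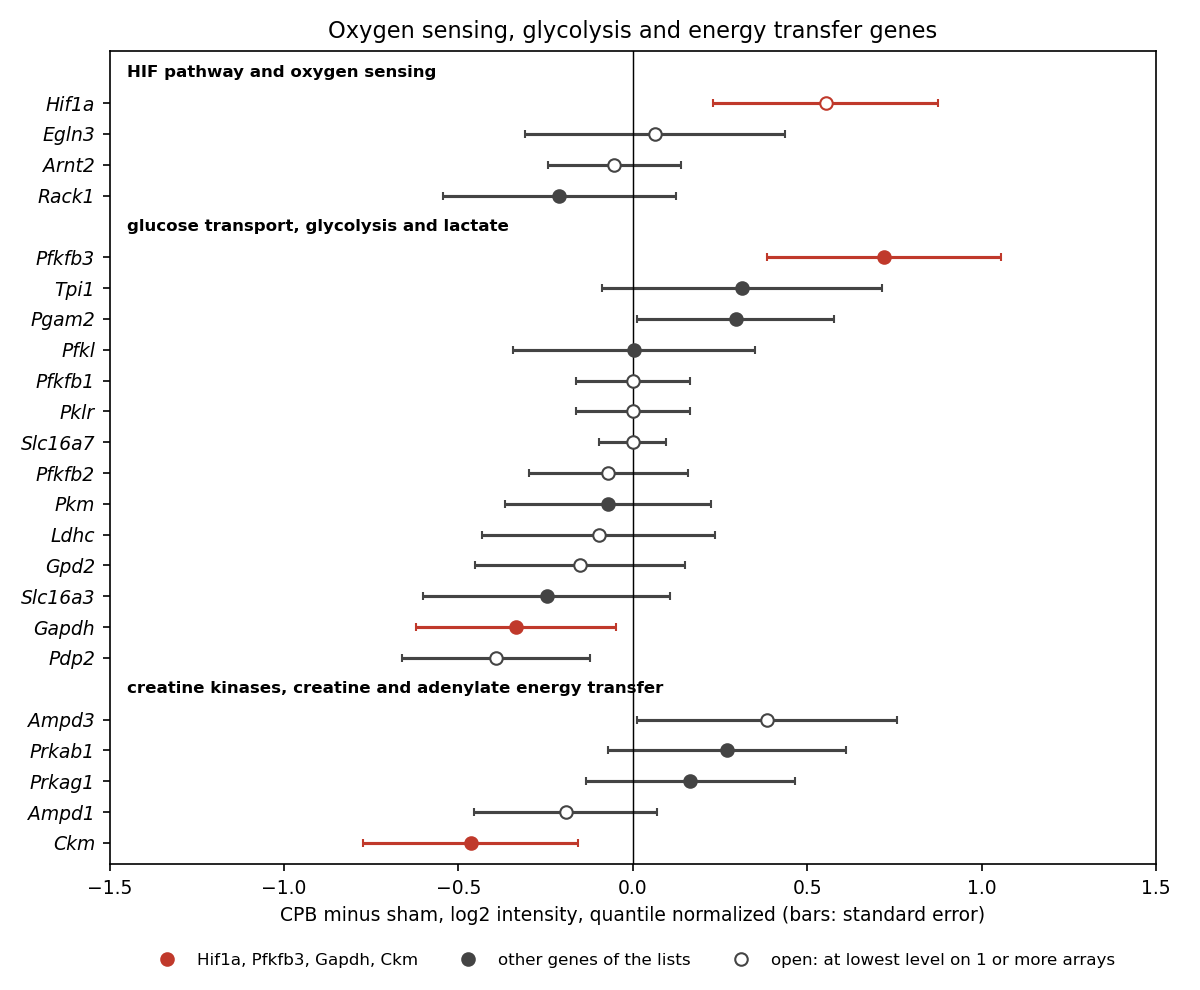
CPB minus sham log2 difference after quantile normalization for every measured gene of 3 lists, with standard errors from the fit over all probes. Red marks Hif1a, Pfkfb3, Gapdh and Ckm, and open symbols mark genes at the lowest level on 1 or more arrays. The other genes lie between -0.39 and 0.39, and none passed the test.

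The genes whose pattern over the 6 arrays was most like each of the 4 were looked for among 498 probes above the lowest level on all arrays, keeping those with 1 gene symbol. These are Pearson correlations over 6 arrays that share their scaling, so they are a description. Hif1a was most like Hnrnpa1, an RNA-binding protein (r = 0.97), Syngr2, a vesicle membrane protein (r = 0.96), and Tnni3, cardiac troponin I (r = 0.89). In the deposited values these were 0.45, 0.97 and -0.44, so of the 3 only Syngr2 kept its likeness. Pfkfb3 was most like Espn, an actin-bundling protein (r = 0.99), Tpm2, a tropomyosin (r = 0.95), and Man2c1, a mannosidase (r = 0.93), with -0.17, 0.07 and -0.26 as deposited.

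Gapdh was most like Thra, a thyroid hormone receptor (r = 0.97), Nudt6 (r = 0.89) and Bhmt, which methylates homocysteine (r = 0.89), with 0.64, 0.89 and 0.20 as deposited. Ckm was most like the protease Capn2 (r = 0.90), the transcription factor Nfix (r = 0.88) and the matrix protein Sparc (r = 0.87), with 0.17, 0.27 and 0.72 as deposited. Pfkfb3 was not among the 3 probes nearest to an enzyme, nor was either enzyme among those nearest to a regulator. The genes were picked for opposite differences on these same arrays, so that absence was largely set by the choice and shows nothing further. Hif1a, at the lowest level on 1 sham array, could not be among the probes compared.

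Summed markers of some other cell types stood apart between the groups. Each sum is the log2 of summed linear signals. For the 2 measured fibroblast markers, Sparc and Dcn, the sum was 13.47 to 14.42 in CPB hearts and 14.95 to 15.15 in sham hearts. It was also apart as deposited, at 13.42 to 14.47 in CPB hearts and 14.82 to 15.16 in sham hearts. Of these 2 genes, only Sparc was apart by itself, with CPB below. Dcn overlapped, since CPB heart 2 at 13.21 lay above sham heart 3 at 12.54 after quantile normalization. The sum thus does not show that both fibroblast markers differed. The share of all probes with CPB below was not computed. The sum of 6 nerve and glia markers, among them Prph, Gfap and Sox10, was 12.34 to 12.50 in CPB hearts and 12.61 to 12.73 in sham hearts. As deposited the ranges overlapped, at 12.25 to 12.50 in CPB hearts and 12.49 to 12.90 in sham hearts. Only 3 of the 6 were above the lowest level on all arrays, and Sox10 was at it on 2 arrays of each group. Gfap alone was apart, at -0.28 (SE 0.29). Of the 6 differences, 5 were negative and 1 positive. After quantile normalization the ranges overlapped for the 3 smooth muscle markers Tagln, Myh11 and Cspg4 (13.05 to 13.97 in CPB, 13.22 to 13.51 in sham) and for S100a9, the only neutrophil and monocyte marker (9.49 to 11.39 in CPB, 10.88 to 12.47 in sham). They also overlapped for the macrophage markers C1qb and Aif1 (12.10 to 12.47 in CPB, 12.41 to 12.76 in sham) and the lymphocyte markers Cd8a and Cd3d (10.63 to 12.28 in CPB, 10.57 to 11.06 in sham). Their part in the differences of the 4 genes was not tested.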

How the data were processed

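Total RNA from 3 CPB and 3 sham hearts was measured on 1 array each, and groups and replicate numbers come from sample titles. The authors deposited natural log values, a scale inferred from the numbers. For array chemistry, background correction and normalization, nothing is given in the sources used here. Hyperbolic sines of the deposited values fell on equal steps within each array, to within 9.25e-06 of a step. Doubled hyperbolic sines gave linear values, which were quantile normalized because array medians differed up to 2.52-fold, and converted to log2 with no pseudocount. An inverse hyperbolic sine with its own offset and step on each array is also the form of a variance-stabilizing normalization, so the deposited values may already be normalized between arrays. Which scaling is nearer the truth is not settled here, and both are given. A fit with limma 3.58.1 in R 4.3.3 (variance trend, two-sided) covered all 1185 probes, with Benjamini-Hochberg adjustment and a threshold of 0.05, and was tested on simulated data. Nothing says that the hearts were handled independently, so p-values measure only the spread between these 6 samples.

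Of the probes, 1113 carried 1 gene symbol, 2 several and 70 none, and 1106 of the 1113 were found in the RefSeq table (GRCr8). The brightest probe stands for a gene. Members and lists were chosen with earlier results of these data known. Named genes are the 4 members, every measured gene of the oxygen sensing, glycolysis and creatine lists, the 3 of smallest p in each other list, and the 3 most like each member. Adm falls outside this rule and was named after its values were seen, to complete the 4 measured HIF-1 targets.

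Deviations from group means of arrays with the same number correlated at 0.240, 0.277 and 0.296 (0.0584, 0.300 and 0.442 as deposited). On the data alone, the numbers may pair the hearts. Arrays with different numbers were not compared, and both arrays numbered 3 had the largest shares of probes at the lowest level, so pairing was not settled. The number as a block was an alternative, beside other scalings, a pseudocount, a filter and leaving out arrays. Arrays were 3 per group, and that number limits precision.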

Additional observations from a re-analysis of the deposited data

How the results depend on the processing

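Of 43 comparisons of a member's difference with an alternative, 37 kept their sign within 1 SD between replicates. Median scaling reversed Gapdh (0.093) and Ckm (0.11). Hif1a moved to 0.31 as deposited, 0.32 with a pseudocount at the 25th percentile, 0.36 without both arrays numbered 3 (chosen after seeing the data) and 0.75 without sham replicate 1. Leaving out 1 array at a time gave 0.44 to 0.75 for Hif1a, 0.37 to 0.93 for Pfkfb3, -0.48 to -0.11 for Gapdh, -0.61 to -0.26 for Ckm and 0.85 to 1.14 for regulators minus enzymes. That contrast was 0.77 as deposited and after median scaling, which cannot differ here, and positive in all 10 alternatives that gave it. The genes were picked for opposite differences on these same arrays, so its sign was largely set by the choice. With only probes above the lowest level the contrast has no value, since Hif1a drops out. The number of probes called was 0 to 1 when 1 array was left out (1 without CPB replicate 1), 1 as deposited, 0 with the replicate block and 2 with the replicate block on the deposited values. Those calls were Sparc and, in the last, also S100a9. Counts at an unadjusted p under 0.05 ran from 20 (median scaling) to 72 (without sham replicate 2), against 35.

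Of 5 list medians, members included, 4 changed sign with scaling, while the median of all probes itself was -0.03 after quantile normalization, -0.29 as deposited and 0.11 after median scaling. The HIF list was at -0.22 as deposited (0.01 in the main setting), and its value of -0.21 among probes above the lowest level is that of 1 gene, Rack1. In the same 2 settings HIF targets were at -0.29 and -0.018 (0.020). The glycolysis list was at 0.093 after median scaling (-0.04) and the glycogen list at -0.16 as deposited (0.10). The creatine and adenylate list was positive throughout, at 0.17, with 0.07 as deposited and 0.47 after median scaling. Coarse steps limit every dim gene, Hif1a among them.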

Other observations

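Genes of glycogen, gluconeogenesis and the pentose phosphate path were outside the comparison above. Of 30 listed genes, 7 were measured, and 0 rose and 0 fell, with 6 positive and 1 negative difference (median 0.10, but -0.16 as deposited). Gyg1, the protein primer of glycogen, was at 11.72, 11.48 and 11.08 in CPB hearts, against 11.88, 11.08 and 9.49 in sham hearts. The limma difference was 0.61 (SE 0.47, adjusted p = 0.909). Sham heart 3 alone was low, only 1 step above the lowest level of its array. Sham heart 1 was the highest of the 6. Pygl, the liver glycogen phosphorylase, has 2 probes at -0.20 (SE 0.21) and -0.12 (SE 0.21), with 3 and 4 of the 6 arrays at the lowest level. Pgm1, which links glycogen to glycolysis, was at 0.36 (SE 0.45).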
